A study of Mus musculus with 21 samples.

Results

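The 7 genes described here encode subunits of the troponin complex of skeletal and heart muscle: Tnnt1, Tnnt2 and Tnnt3 (troponin T), Tnnc1 and Tnnc2 (troponin C), and Tnni1 and Tnni2 (troponin I). They were chosen by name, and they are 7 of the 19304 protein-coding genes of at least 2 kb whose bodies were measured. The data are chromatin immunoprecipitation and sequencing (ChIP-seq) of H3K36me3, histone H3 trimethylated at lysine 36, in C2C12, a mouse myoblast line that fuses into muscle cells in culture. Wild-type (WT) cells were sampled at day 0, at day 1 and day 5 in control medium, and at day 1 and day 5 under methionine restriction, with 2 libraries in each of these 5 conditions. Beside them, 2 lines labelled as knockouts (KO) of Setd2, the gene for the enzyme that places this mark, were sampled in the same 5 conditions with 1 library per line and condition, 20 libraries in all. The labels do not say whether the replicate libraries came from separate cultures, or whether a KO line is a single clone, so p-values measure the spread between these libraries, which may be technical.

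Troponin sits on the actin thin filament and makes contraction depend on calcium. Troponin C binds the calcium, troponin I holds the filament in its inhibited state, and troponin T ties both to tropomyosin. Each subunit has several genes: Tnnt1 and Tnni1 encode slow-fibre isoforms, Tnnt3, Tnnc2 and Tnni2 encode fast-fibre isoforms, Tnnc1 encodes the isoform shared by slow fibres and heart, and Tnnt2 encodes the cardiac troponin T that embryonic skeletal muscle also makes. H3K36me3 is laid down behind elongating RNA polymerase, so it covers the bodies of transcribed genes and is usually low at their promoters.

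The value used throughout is cover, the percent of a gene body, from its start to its end in RefSeq, that lies inside the peaks of a library. Peaks were called by the authors in each library separately. Cover therefore reports where the mark was called and how far it extended, not its amount, and a peak list carries no read depth. Fewer cells carrying the mark and less mark per cell cannot be told apart in such bulk samples. On GRCm38, Tnnt1 lies at chr7:4504569-4515975, Tnnt2 at chr1:135836315-135852268, Tnnt3 at chr7:142498771-142516213, Tnnc1 at chr14:31208312-31211729, Tnnc2 at chr2:164777161-164779734, Tnni1 at chr1:135783033-135810989 and Tnni2 at chr7:142441816-142444410. They form partial pairs: Tnni1 lies on the same chromosome as Tnnt2, and Tnni2 on the same one as Tnnt3. Their bodies run from 2.57 kb for Tnnc2 to 28 kb for Tnni1.

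The promoters of 5 of the 7 genes were in the RefSeq promoter table (GRCm38.p6), those of Tnnt1, Tnnt2, Tnnc1, Tnnc2 and Tnni1. For Tnnt2 and Tnni1 the table holds 2 windows each, and the one with the lower start coordinate is printed. The windows are shown because peaks left them free, or nearly so for Tnnc1, while the bodies behind them filled. Each line gives 300 bases on the gene's own strand, 250 before the start site and 50 from it on. Capitals mark CANNTG, the E-box that myogenic factors such as MyoD recognise (CAGCTG is 1 form of it), and CATTCCT, the core of the MCAT element known from the cardiac troponin T promoter. Tnnt1 (chr7:4515926-4516225, minus strand), Tnnc2 (chr2:164779685-164779984, minus strand), Tnni1 (chr1:135799171-135799470, plus strand), Tnnt2 (chr1:135836084-135836383, plus strand) and Tnnc1 (chr14:31208062-31208361, plus strand) read:
Tnnt1: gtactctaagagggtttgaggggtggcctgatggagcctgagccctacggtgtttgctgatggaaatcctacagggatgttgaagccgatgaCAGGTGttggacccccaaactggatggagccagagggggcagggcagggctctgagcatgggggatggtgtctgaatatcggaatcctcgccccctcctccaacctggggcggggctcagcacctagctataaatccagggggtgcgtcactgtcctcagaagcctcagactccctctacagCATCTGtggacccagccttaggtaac
Tnnc2: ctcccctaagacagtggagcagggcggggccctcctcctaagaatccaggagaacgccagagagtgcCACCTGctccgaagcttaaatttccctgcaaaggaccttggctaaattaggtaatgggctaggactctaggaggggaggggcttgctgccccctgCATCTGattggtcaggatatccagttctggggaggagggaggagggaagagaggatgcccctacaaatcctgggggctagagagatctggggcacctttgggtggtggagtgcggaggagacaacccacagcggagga
Tnni1: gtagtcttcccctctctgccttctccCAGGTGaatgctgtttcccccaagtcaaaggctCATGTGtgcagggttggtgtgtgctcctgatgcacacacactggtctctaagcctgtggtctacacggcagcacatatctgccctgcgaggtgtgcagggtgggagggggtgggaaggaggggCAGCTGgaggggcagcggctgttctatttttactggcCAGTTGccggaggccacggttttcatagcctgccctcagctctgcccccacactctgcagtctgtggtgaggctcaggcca
Tnnt2: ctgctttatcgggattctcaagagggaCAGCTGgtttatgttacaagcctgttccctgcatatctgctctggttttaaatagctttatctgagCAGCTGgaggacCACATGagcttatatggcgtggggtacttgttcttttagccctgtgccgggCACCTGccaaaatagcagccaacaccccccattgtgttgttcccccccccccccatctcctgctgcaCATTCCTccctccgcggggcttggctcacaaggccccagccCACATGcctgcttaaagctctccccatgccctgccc
Tnnc1: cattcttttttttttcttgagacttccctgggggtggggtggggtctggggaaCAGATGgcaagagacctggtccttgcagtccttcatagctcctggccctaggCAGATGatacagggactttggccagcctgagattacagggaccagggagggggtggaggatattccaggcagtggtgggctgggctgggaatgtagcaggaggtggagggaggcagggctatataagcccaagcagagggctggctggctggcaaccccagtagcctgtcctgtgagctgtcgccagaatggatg

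In the printed window of Tnnt2, CANNTG occurred 5 times, 2 of them as CAGCTG, and CATTCCT occurred once. Tnni1 had CANNTG 4 times, 1 of them as CAGCTG, and Tnnt1, Tnnc1 and Tnnc2 had it 2 times each, with neither CAGCTG nor CATTCCT. The windows not printed held fewer matches: that of Tnnt2, with its start site at 135836989, had CANNTG 2 times with neither CAGCTG nor CATTCCT, and that of Tnni1, with its start site at 135799511, had CANNTG 2 times, 1 of them as CAGCTG. Both strands were searched. Over all 32851 promoter windows of the same length, 72.3% held CANNTG, with a mean of 1.39 per window, 16.3% held CAGCTG and 5.36% held CATTCCT. The MEF2 motif, searched by name on both strands, was in 3.19% of all windows and matched none of these 5. These matches describe the letters in the windows and nothing about binding. The peaks covered 0% of the windows of Tnnt1, Tnnt2, Tnnc2 and Tnni1 in every one of the 20 libraries, and at most 11% of that of Tnnc1. The table's start sites of Tnnt1, Tnnc1 and Tnnc2 lie at the 5′ end of the RefSeq body. That of Tnni1 lies far inside its body, 11.6 kb from the 3′ end of a 28 kb body, which matters for its cover below.

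Some facts of the whole series bear on all values. In WT, peaks covered 159 to 179 Mb at day 0, 140 to 150 Mb at day 1 and 171 to 183.5 Mb at day 5 in control medium, against 110 to 129 Mb and 131 to 134 Mb under restriction. KO line 1 had 0.307 to 74.1 Mb and KO line 2 had 0.00821 to 7.13 Mb. The body of Setd2 itself was covered to 45.6% to 82.8% in WT, to 0% to 24.0% in KO line 1 and to 0% in all libraries of KO line 2. Of 4 myoblast markers (Myod1, Myf5, Des, Cdh15), all were covered in both WT libraries at day 0, and all but Myf5, at 0% and 11.02%, in both at day 1 in control medium. All 5 markers of differentiated muscle cells (Myog, Mymk, Mymx, Ckm, Myh3) were at 0 at day 0 and all were covered at day 5 in control medium. Endothelial (Cdh5, Pecam1, Tek) and leukocyte markers (Ptprc, Laptm5, Cd53) were at 0 in all WT libraries. In the KO lines Cd53 reached 19.7% in line 2 and 8.87% in line 1, and Cdh5, Pecam1, Tek and Ptprc had at most 1.3% in any library.

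At day 0, 5 of the 7 genes had no peak at all on their bodies: Tnnt1, Tnnt3, Tnnc2, Tnni1 and Tnni2 were listed at 0 in both WT libraries. Genes without a day 0 peak are common: of all 19304 genes, 53.8% and 54.4% had any cover in the 2 libraries. Of the 9513 genes tested in WT 1.35% were at 0 in both, but these had to reach a mean cover of 5% over the 10 libraries, which leaves out most genes at 0. The other two were already covered. Tnnt2 was at 39.5% and 43.0%, and Tnnc1 at 36.9% and 57.8%. These are the genes whose products are also the heart's troponin T and troponin C, while of 5 heart muscle markers, Nkx2-5, Tbx5, Myh6 and Ryr2 were at 0 in both libraries and Nppa reached 47.2% in 1 of them. Tnni3, the gene of cardiac troponin I, lies 2.33 kb from Tnnt1 and was at 0 in all 20 libraries.

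The day 0 peaks on Tnnt2 lay toward its 3′ end. With the body cut into 3 equal segments in the direction of transcription, the last segment was covered to 93.1% and 86.6%, the middle one to 0% and 9.89% and the first to 25.3% and 32.6%. The peak also covered all of the 2 kb beyond the 3′ end. Tnnc1 was uncovered in its first segment and covered to 56.3% and 73.3% in the middle one.

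**Figure D1:**
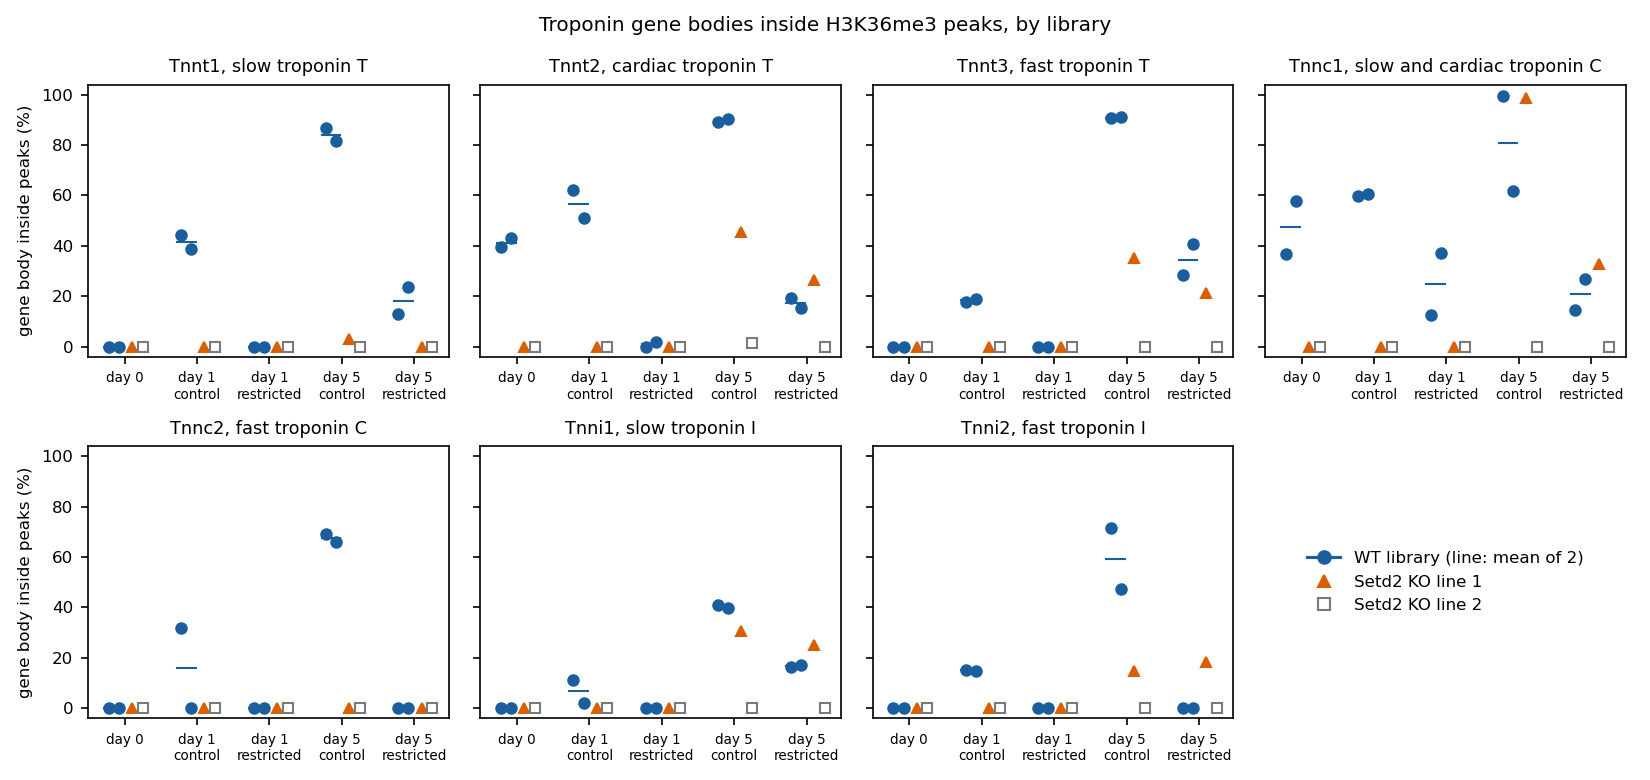
Percent of each gene body inside H3K36me3 peaks (y axis) in all 20 libraries, by day and medium (x axis). Blue circles are WT libraries with a line at their mean, orange triangles KO line 1 and open squares KO line 2. All 7 genes have their highest library in WT at day 5 in control medium, where Tnnt3 stands at 90.8% and 91.0%; on Tnnc1, KO line 1 at 98.6% lies between the WT libraries at 61.9% and 99.5%.

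By day 1 in control medium, peaks had appeared on the genes that had none. Tnnt1, slow troponin T, rose from 0 to 44.5% and 38.6%, and Tnnt3, fast troponin T, from 0 to 17.6% and 19.1%. These were the only members that passed the test between day 0 and day 1, with limma differences of 41.6 points (SE 4.37, adjusted p = 0.00228) and 18.4 points (SE 4.21, adjusted p = 0.0397). Of all 9513 genes 0.967% were called higher, and 6.69% were called in either direction. The call of Tnnt3 was lost in 14 of 18 alternatives and that of Tnnt1 in 3, among them the fit of only the 4 libraries compared, where both had adjusted p = 0.124.

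The other members had day 1 values above 0 that did not pass. Tnni2, fast troponin I, was at 15.3% and 14.95% (limma difference 15.1 points, SE 6.24, adjusted p = 0.178). The WT groups share 1 estimate of spread, so this SE takes in the day 5 control libraries of Tnni2, at 71.3% and 47.2%. Tnni1, slow troponin I, was at 11.2% and 2.25% (6.74 points, SE 2.90, limma adjusted p = 0.194). Tnnc2, fast troponin C, was at 31.8% in replicate 1 and 0% in replicate 2 (15.9 points, SE 8.11, limma adjusted p = 0.266). In replicate 2 peaks left the body free and covered 32.4% of the 2 kb beyond its 3′ end. On Tnnt2 cover was 62.3% and 50.9%, 15.4 points above day 0 (SE 4.53, limma adjusted p = 0.0814). On Tnnc1 it was 59.8% and 60.8%, 12.98 points above day 0 (SE 12.97, limma adjusted p = 0.568). Thus 7 members carried a peak in replicate 1 and 6 in replicate 2. In the same libraries, 53.21% and 53.03% of all measured genes had any cover. On Tnnc2 the day 1 peak of replicate 1 began 1.76 kb from the 5′ end of a body of 2.57 kb.

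Day 5 in control medium gave the highest WT cover of every member. The troponin T genes had the highest means: Tnnt3 reached 90.8% and 91.0%, Tnnt2 89.3% and 90.4%, and Tnnt1 86.6% and 81.5%. Tnnc1 was at 99.5% and 61.9%, Tnnc2 at 69.0% and 65.7%, Tnni2 at 71.3% and 47.2%, and Tnni1 at 40.9% and 39.6%. The replicates of Tnnc1 and Tnni2 lay far apart, with means of 80.7% ± 26.6 and 59.3% ± 17.1 (SD, n = 2). The order of Tnnc1, Tnnc2 and Tnni2 is thus within their spread, as is the place of Tnnc1 below the troponin T genes. Tnni1 stood below all others in both libraries, but the peaks filled the part of its body behind the promoter-table start: over that 11.6 kb its cover was 98.7% and 95.6%.

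From day 0 to day 5, 6 of 7 members rose, against 12.2% of all genes called higher and 27.8% called in either direction. The median difference was 59.3 points over the members and -1.17 points over all genes. Tnnt3 rose by 90.9 points (SE 4.21, limma adjusted p = 2.21e-06) and Tnnt1 by 84.0 points (SE 4.37, limma adjusted p = 3.93e-06). Tnnc2, at 67.4 points (SE 8.11), and Tnni2, at 59.3 points (SE 6.24), also started from 0, with limma adjusted p of 0.00041 and 0.000185. Tnnt2 rose by 48.6 points from its higher start (SE 4.53, limma adjusted p = 8.65e-05) and Tnni1 by 40.2 points (SE 2.90, limma adjusted p = 2.11e-05). For Tnnc1 the estimate was 33.4 points (SE 12.97, limma adjusted p = 0.0941), with both day 5 libraries above both day 0 libraries. It rests on single libraries: without replicate 2 of day 5 control it was 52.2 points and passed (limma adjusted p = 0.0269), and without replicate 1 it was 14.6 points.

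Most of this rise fell between day 1 and day 5. All members but Tnnc1 passed that test as well (6 of 7, against 17.1% of all genes called higher and 23% called in either direction). The largest difference was that of Tnnt3, 72.5 points (SE 4.21, limma adjusted p = 1.02e-05), and the smallest of the 6 was Tnnt2, 33.2 points (SE 4.53, limma adjusted p = 0.0011). For Tnnt1 the 2 steps were 41.6 points to day 1 and 42.5 points from day 1 to day 5, but 12.01 and 72.0 points with only peaks of −log10 q of at least 3. The difference between the steps was not tested.

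**Figure D2:**
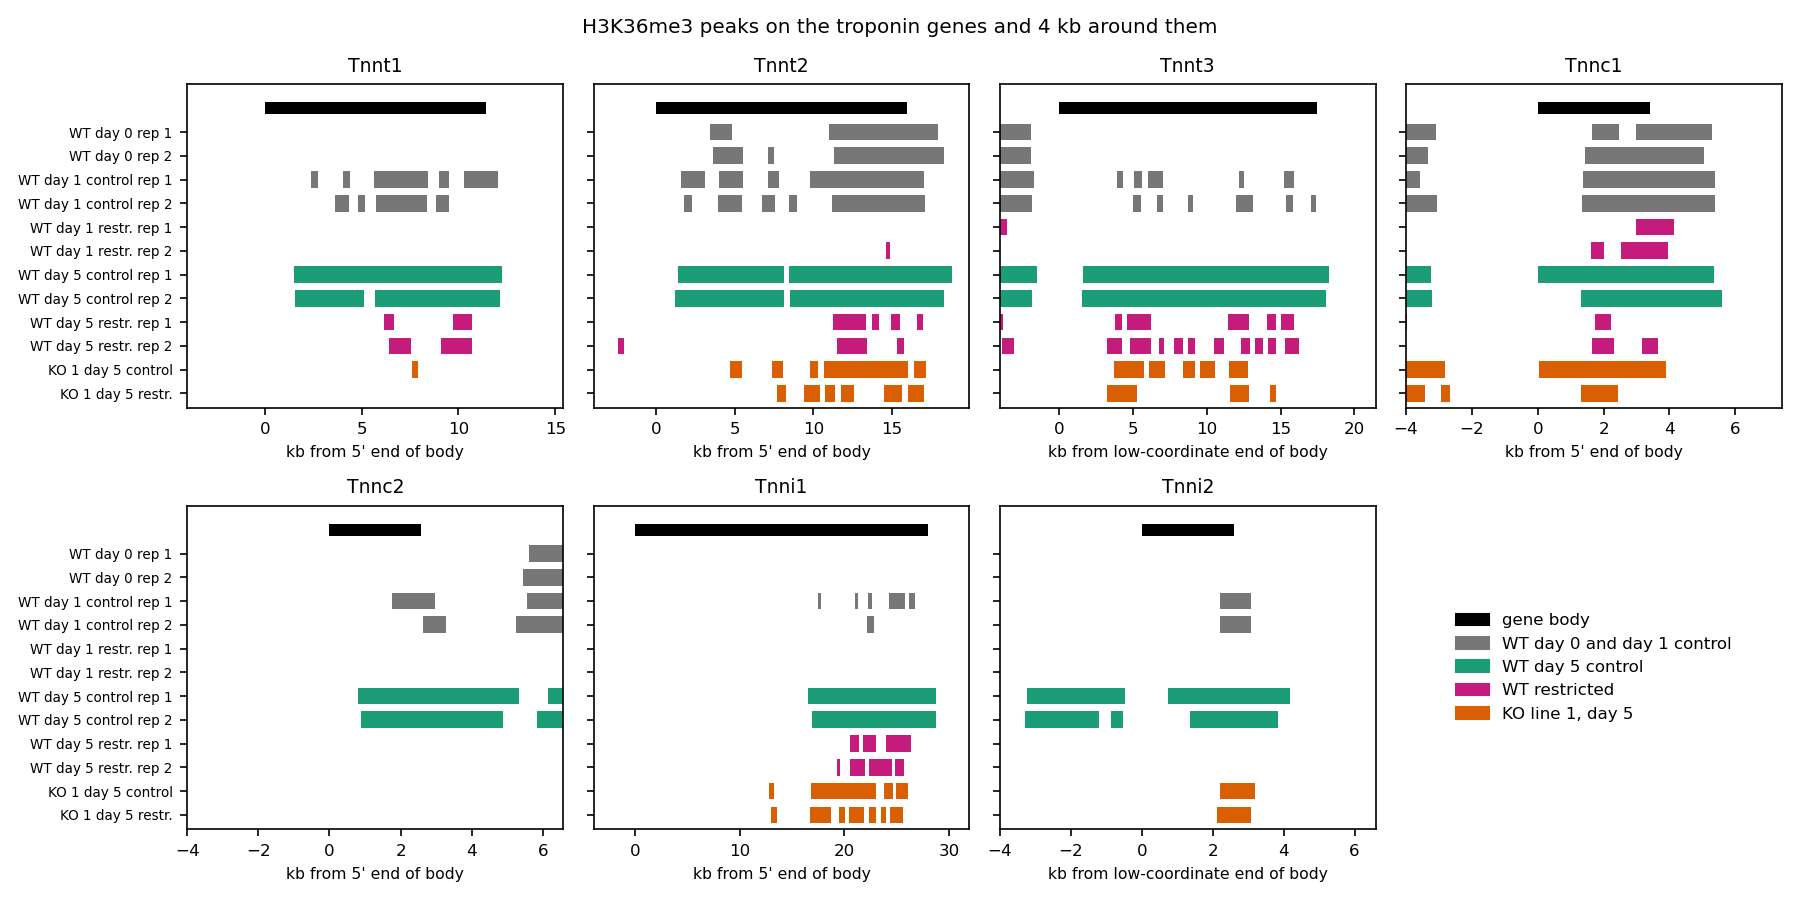
Authors' peaks (coloured bars) on each gene body (black bar) and 4 kb around it, with 1 row per WT library and 2 rows for KO line 1 at day 5; the x axis is distance in kb from the 5′ end of the body, or from its low-coordinate end for Tnnt3 and Tnni2. At day 5 in control medium (green) 1 or 2 long peaks fill each body from a point inside it, which lies 16.5 and 16.9 kb in on Tnni1, while restricted WT libraries (magenta) hold short separate peaks or none.

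The day 5 peaks were long and had a common shape. On the 7 genes there were 17 peaks in the 2 libraries together, and the longest peak on a gene measured between 2.46 kb, on Tnni2, and 16.7 kb, on Tnnt3. They left the 5′ end free. The first covered base lay 1.53 and 1.54 kb inside Tnnt1, 1.39 and 1.17 kb inside Tnnt2, and 0.799 and 0.882 kb inside Tnnc2. On Tnnc1 it lay 0.017 kb inside in replicate 1 and 1.3 kb inside in replicate 2, and that is where its replicates parted. At the other end the peaks ran past the 3′ end by 2.91 and 2.40 kb on Tnnt2, 2.75 and 2.29 kb on Tnnc2, 1.95 and 2.17 kb on Tnnc1, 0.829 and 0.720 kb on Tnnt1 and 0.791 and 0.768 kb on Tnni1. Tnnc2 and Tnnc1 thus had peaks of 3.99 to 5.35 kb, longer than their bodies of 2.57 and 3.42 kb. On Tnni2, with a body of 2.60 kb, the peak measured 3.42 kb in replicate 1 and 2.46 kb in replicate 2.

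The strongest peak on each gene was also placed by its fold enrichment among all peaks of its own list. Fold enrichment is the authors' value for each peak and was used only as a rank within a list. At day 5 in control medium all 14 pairs of a gene and a library lay between the 97.3 and 99.9 percentile. Among genes with at least 50% cover in the same libraries, 35.8% and 35.4% had their best peak at or above the 97 percentile, a limit chosen after the values were seen, and the median was 95.1 in both. Ranks in lists of different lengths show no change between days, so the other lists are described each by itself. At day 1 in control medium the 13 pairs lay between 14.5 and 94.4, and at day 0 Tnnt2 was at 94.5 and 95.2 and Tnnc1 at 79.9 and 71.8.

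**Figure D3:**
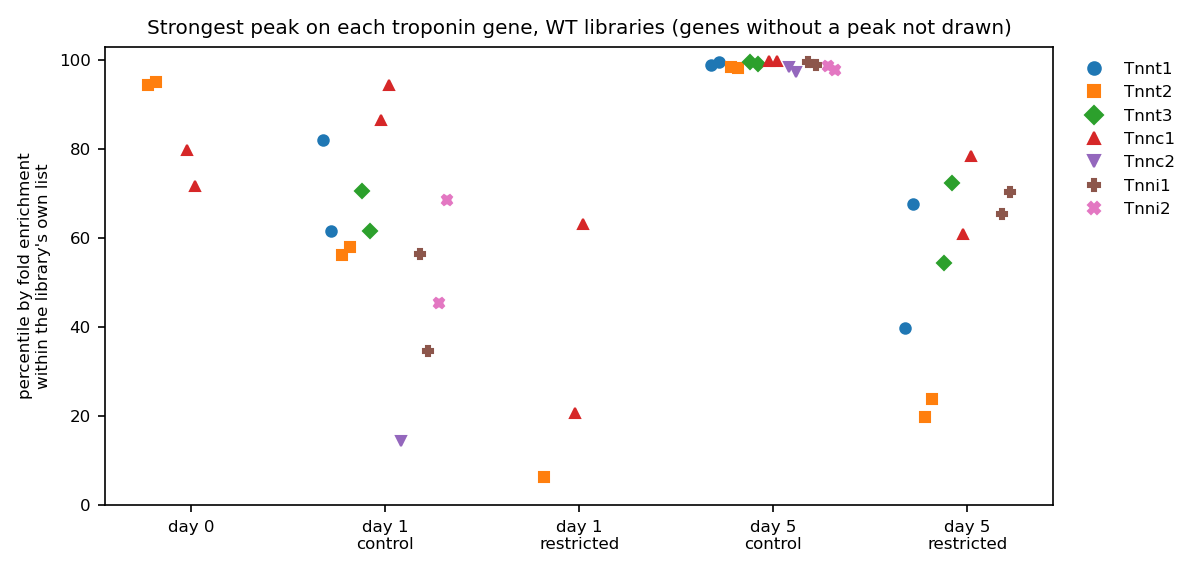
Percentile by fold enrichment of the strongest peak on each troponin gene within the list of its own library (y axis), for the 10 WT libraries by day and medium (x axis); each symbol is 1 gene in 1 library. At day 5 in control medium the 14 symbols lie between 97.3 and 99.9, and at day 5 under restriction the 10 symbols lie between 19.9 and 78.5.

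Methionine is the precursor of S-adenosylmethionine, the donor of the methyl groups that histone methyltransferases transfer, and the restricted medium lowers its supply. At day 5 under restriction, cover of the whole set was lower in every library than in control medium, with no overlap for any member. Tnnt1 was at 12.8% and 23.7%, Tnnt2 at 19.3% and 15.4%, and Tnnt3 at 28.4% and 40.8%. Tnnc1 was at 14.5% and 27.0% and Tnni1 at 16.3% and 17.3%. The fast isoforms Tnnc2 and Tnni2 were at 0 in both libraries, as at day 0. No member reached 50% in either restricted library, whereas 6 did in replicate 1 and 5 in replicate 2 of control medium. Of all 19304 genes, 16.96% and 17.5% reached it under restriction and 27.2% and 24.96% in control medium.

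All 7 members passed the test at day 5 and all were lower. Of all genes 41.5% were called lower and 45.8% were called in either direction, and 65.4% had both restricted libraries below both control libraries. The median difference over the members was -59.98 points, against -9.16 points over all genes. Tnnt2 fell by 72.5 points (SE 4.53, limma adjusted p = 1.53e-05) and Tnnc2 fell by 67.4 points (SE 8.11, limma adjusted p = 0.000316). Tnnt1 fell by 65.8 points (SE 4.37, limma adjusted p = 2.11e-05). Tnnc1 fell by 59.98 points (SE 12.97, limma adjusted p = 0.00608) and Tnni2 fell by 59.3 points (SE 6.24, limma adjusted p = 0.000165). Tnnt3 fell by 56.3 points (SE 4.21, limma adjusted p = 3.24e-05). The smallest difference, -23.4 points for Tnni1 (SE 2.90, limma adjusted p = 0.000366), belongs to the gene with the lowest control cover. Over its shorter body from the promoter-table start the difference was -56.5 points (limma adjusted p = 0.0002). When peaks within 1 kb were merged Tnnc1 no longer passed, at -47.5 points (limma adjusted p = 0.0598). When libraries were centred on their medians Tnni1 no longer passed, and its difference shrank to -6.7 points (limma adjusted p = 0.184).

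As a share of the day 5 control mean, restriction left 41.9% of the cover of Tnni1, 38.0% of Tnnt3, 25.7% of Tnnc1, 21.7% of Tnnt1 and 19.3% of Tnnt2, and 0% of Tnnc2 and Tnni2. Over 9505 genes with at least 5% cover in control medium the median was 77.1%, with quartiles at 51.2% and 96.0%. All 7 members thus lay below the lower quartile. The restricted lists are shorter as a whole, so the test was repeated with every WT list cut to the same covered length. The cut kept the peaks of highest −log10 q. All 7 members then fell again, with differences from -34.2 points for Tnni1 to -80.0 points for Tnnt3. Markers of differentiated muscle moved with the set: their summed cover was 356 to 371.1 points in control medium and 86.5 to 91.4 points under restriction. Myog and Mymx were at 0 under restriction, and Myh3 kept the most, at 56.7% and 57.85% against 96.5% and 89.6%. The summed cover of the 4 myoblast markers was lower as well, at 233.8 to 250.5 points in control medium and 117 to 117.2 points under restriction. Myod1 was at 66.8% and 78.4% against 0, and Des at 84.7% and 88.8% against 43.9% and 42.6%. Cdh15 was at 82.3% and 83.2% against 73.2% and 74.35%, and Myf5 was at 0 in both media. The part of either list in the result was not tested.

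What remained at day 5 under restriction was broken into short pieces. The 5 genes still carrying peaks had 34 of them in the 2 libraries, against 17 on 7 genes in control medium, and the longest measured 0.496 to 2.43 kb. Tnnt3 had 5 and 10 separate peaks in place of a single peak in each control library. On Tnnt2 the remaining peaks lay in the last of the 3 segments only, at 57.9% and 46.2%. On Tnnt1 the first segment was at 0 in both libraries, the middle one at 13.1% and 29.2% and the last at 25.3% and 42.0%. The strongest peaks on these 5 genes lay between the 19.9 and 78.5 percentile of their lists by fold enrichment.

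**Figure D4:**
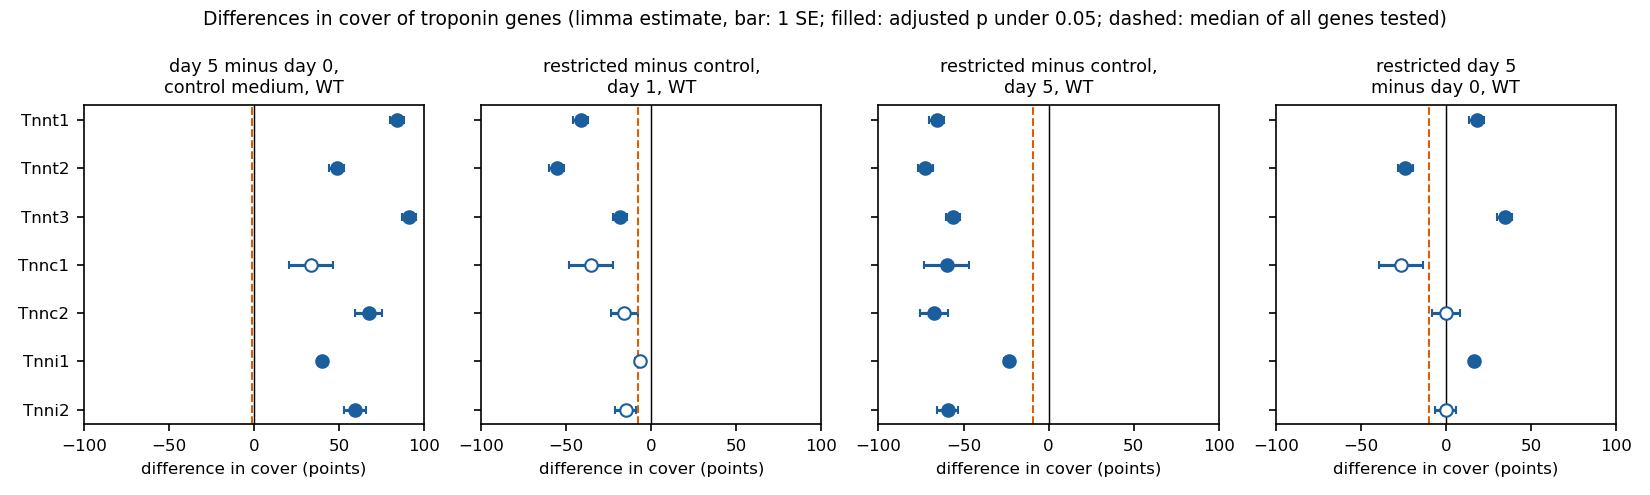
Differences in cover in points (x axis, limma estimate with 1 SE) for each troponin gene in 4 WT comparisons, each between groups of 2 libraries. Filled symbols have an adjusted p under 0.05 and the dashed line is the median of all genes tested. At day 5 all 7 genes lie left of the median of -9.16 points, from -23.4 to -72.5 points.

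At day 1 the restricted libraries held peaks on only 2 members, while 51.57% and 50.18% of all measured genes had any cover in them. Tnnc1 was at 12.6% and 37.4%, and Tnnt2 at 0% and 1.79%. The values of Tnnt2 lay below both day 0 libraries, and those of Tnnc1 overlapped them. The other 5 were at 0 in both libraries, as they had been at day 0. Against control medium of the same day 3 of 7 members fell, a share near the 36% of all genes called lower (38.3% in either direction). Summed cover of the differentiated muscle markers was 130.7 to 142.4 points in control medium and 0 under restriction, and that of the myoblast markers 242.6 to 248.7 against 102.8 to 114.5 points. Their part was not tested. Tnnt2 fell by 55.7 points (SE 4.53, limma adjusted p = 7.35e-05), Tnnt1 fell by 41.6 points (SE 4.37, limma adjusted p = 0.000221) and Tnnt3 fell by 18.4 points (SE 4.21, limma adjusted p = 0.00963). For Tnnc1 the difference was -35.3 points (SE 12.97, limma adjusted p = 0.0618), for Tnnc2 -15.9 (SE 8.11, limma adjusted p = 0.159), for Tnni2 -15.1 (SE 6.24, limma adjusted p = 0.0895) and for Tnni1 -6.74 (SE 2.90, limma adjusted p = 0.101). Without replicate 1 of day 5 control, whose spread enters the shared estimate, Tnnc1 and Tnni2 also passed (adjusted p = 0.0319 and 0.00061 in limma), and without replicate 2 they did as well. Without replicate 2 of day 1 control Tnnc2 and Tnni1 passed, at -31.8 and -11.2 points (limma adjusted p = 0.00109 and 0.0208), and without replicate 1 they were at 0 and -2.25 points. With lists of equal covered length the differences of Tnnt1 and Tnnt3 were -12.0 and -3.69 points and did not pass (limma adjusted p = 0.264 and 0.342). The call of Tnnt3 was lost in 6 of 18 alternatives, among them centring, at -3.19 points, the limit of 3 on −log10 q, at 0 points, and leaving out replicate 2 of either day 1 group (limma adjusted p = 0.058 without that of control and 0.0508 without that of restriction).

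The difference in points between the day 5 and the day 1 effect of restriction passed the test for 3 members. It was -51.5 points for Tnnc2 (SE 11.5, limma adjusted p = 0.0409), -44.1 for Tnni2 (SE 8.83, limma adjusted p = 0.0258) and -37.9 for Tnnt3 (SE 5.96, limma adjusted p = 0.00929). Of all genes 3.6% were called in this direction and 5.21% in either. These 3 genes had 15.1 to 18.4 points of mean cover in control medium at day 1 and were at 0 under restriction. Since Tnnc2 and Tnni2 were at 0 under restriction on both days, their difference is the rise in control medium from day 1 to day 5 with its sign turned, and as a share restriction left 0% on both days. For Tnnt3 the share left was 0% at day 1 and 38.0% at day 5, so the order of the days turns with the scale. With any 1 of the 4 restricted libraries left out Tnnt3 alone was called, but with peaks within 1 kb merged its difference was -22.9 points and did not pass (limma adjusted p = 0.317). For Tnnt1 the difference was -24.2 points (SE 6.18, limma adjusted p = 0.0648) and for Tnni1 -16.6 (SE 4.10, limma adjusted p = 0.0578). For Tnnt2 it was -16.8 (SE 6.40, limma adjusted p = 0.184) and for Tnnc1 -24.7 (SE 18.3, limma adjusted p = 0.513). With only peaks of −log10 q of at least 3, Tnnt1, Tnni1 and Tnnt2 passed, at -72.0, -33.0 and -47.2 points (limma adjusted p = 0.00892, 0.00294 and 0.0299). With lists of equal covered length Tnnt1 and Tnni1 passed, at -67.15 and -31.4 points (limma adjusted p = 0.0129 and 0.00325).

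Restricted day 5 cells were also set against the day 0 myoblasts. Tnnt3 was 34.6 points higher than at day 0 (SE 4.21, limma adjusted p = 0.000287), Tnnt1 18.3 points higher (SE 4.37, limma adjusted p = 0.00909) and Tnni1 16.8 points higher (SE 2.90, limma adjusted p = 0.00181). Tnnt2 fell by 23.9 points (SE 4.53, limma adjusted p = 0.00288). Of all genes 4.05% were called higher, 43.5% lower and 47.5% in either direction. Tnnc2 and Tnni2 were at 0 in all 4 libraries, and for Tnnc1 the difference was -26.6 points (SE 12.97, limma adjusted p = 0.124). These gains rest on weak peaks: with only peaks of −log10 q of at least 3, those of Tnnt1, Tnnt3 and Tnni1 were 0, 2.93 and 4.49 points with limma adjusted p of 1, 0.522 and 0.206. With lists of equal covered length the gains of Tnnt1 and Tnni1 were 4.87 and 6.02 points and did not pass (limma adjusted p = 0.644 and 0.0888). That of Tnnt3 still passed with those lists. The fall of Tnnt2 was -14.2 points with them and -4.83 points with centred libraries. It did not pass in either (limma adjusted p = 0.102 and 0.473).

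Slow and fast isoforms were also set side by side as means. The mean cover of Tnnt1, Tnnc1 and Tnni1 was 12.3% and 19.3% at day 0, where that of Tnnt3, Tnnc2 and Tnni2 was 0. All of the slow value at day 0 came from Tnnc1. At day 1 in control medium the slow mean was 38.5% and 33.9% and the fast mean 21.6% and 11.4%. At day 5 in control medium they were 75.7% and 61.0% against 77.0% and 68.0%, and under restriction 14.6% and 22.7% against 9.45% and 13.6%. No test was made of these means, since each rests on 3 genes of different length.

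In the KO lines no member carried a peak at day 0 or day 1 in either medium, in any of the 6 libraries. Of all 19304 genes, 26.6% had any cover in line 1 at day 0, 20.6% in its control library of day 1 and 1.7% in its restricted one, and 0.275% to 3.04% in line 2, so most genes were without a peak in these libraries. KO line 2 remained so at day 5 apart from a single peak of 0.251 kb on Tnnt2 in control medium, 1.57% of the body. In KO line 1 at day 5 the share of all genes with any cover was 42.0% in control medium and 31.8% under restriction, and most members were among them. In control medium Tnnc1 was at 98.6%, Tnnt2 at 45.3%, Tnnt3 at 35.2%, Tnni1 at 30.7%, Tnni2 at 14.8% and Tnnt1 at 3.08%, with Tnnc2 at 0. Under restriction it held Tnnc1 at 32.8%, Tnnt2 at 26.5%, Tnni1 at 24.9%, Tnnt3 at 21.2% and Tnni2 at 18.4%, with Tnnt1 and Tnnc2 at 0. The order of the members in line 1 was thus not that of WT at day 5, where Tnnt1 was at 81.5% or more. Line 1 also showed cover of 1 of the 5 differentiated muscle markers, Mymk, summing to 44.6 points in control medium and 20.5 points under restriction, and line 2 of none. Of the myoblast markers Des and Cdh15 were covered in line 1 at day 5, summing to 88.7 points in control medium and 50.8 points under restriction, against 0 at day 0, and line 2 had none. The part of either list in the cover of the members was not tested.

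Averaged over the 5 conditions, 6 members were lower in the KO lines, among 98% of all 8861 genes called and 97.9% called lower, so the count says nothing particular to troponin. The differences ran from -11.6 points for Tnni2 (SE 3.09, limma adjusted p = 0.00285) to -33.9 points for Tnnt2 (SE 4.85, limma adjusted p = 1.59e-05). The 10 KO libraries came from 2 lines and entered as independent, so these p-values may be too small. For Tnni1 the difference was -7.19 points (SE 3.70, limma adjusted p = 0.0764). In the fit with the replicate block that pairs libraries by KO line its limma adjusted p was 0.0444. With 1 library left out the value of Tnni1 ran from -4.12 to -10.26 points, and with KO line 2 only it was -12.75 points. The median over all genes was -42.3 points. Centring every library on its own median moves all genes up alike, to a median of 3.94 points, and all 7 members to positive values. Members at 0 in most WT conditions could fall by little. At day 5 in control medium 6 members were lower, where 84.1% of all genes were called, the same share lower. With centred libraries only Tnnt1 and Tnnt3 of these were still called lower (-32.3 and -23.1 points, limma adjusted p = 1.09e-05 and 0.0161). Tnnt2, Tnnc2 and Tnni2 then gave -16.2, -17.2 and -1.69 points and did not pass (limma adjusted p = 0.181, 0.0769 and 0.862), and Tnni1 was called higher, at 25.4 points (limma adjusted p = 0.00835). In the fit of only the libraries compared Tnnt2 and Tnni1 did not pass (limma adjusted p = 0.0734 and 0.112). In the fit of all 20 libraries Tnnt1 fell by 82.5 points (SE 3.18, limma adjusted p = 6.07e-10) and Tnni1 fell by 24.9 points (SE 8.27, limma adjusted p = 0.0138). Tnnt1 was at 0 in most of these libraries, and groups at 0 add no spread to its SE. The value of Tnni1 rests on both lines: it was -9.49 points without the line 2 library (limma adjusted p = 0.244) and -40.2 points without that of line 1. Tnnc1 gave -31.4 points (SE 23.5, limma adjusted p = 0.219), the mean of a line at 98.6% and a line at 0. With line 1 alone it was 17.9 points (limma adjusted p = 0.33), its library lying between the WT libraries at 61.9% and 99.5%, and with line 2 alone -80.7 points. At day 5 under restriction KO line 1 stood above both WT libraries on Tnnt2, Tnnc1, Tnni1 and Tnni2, 4 of 7 members, where 10.7% of all genes did so. This has no replicate in line 1, and in line 2 all 4 were at 0.

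Peaks on neighbouring genes were examined because the troponin genes are short and closely set. Lad1, which lies between Tnni1 and Tnnt2, was at 0 in all libraries but 1, where it was at 2.73%, so the long peaks on its neighbours did not run through it. Beyond Tnnt2, Pkp1 rose from 60.9% and 63.6% at day 0 to 97.7% and 93.9% at day 5 (limma difference 33.6 points, SE 3.86, adjusted p = 0.000298). Syt8, 1.42 kb from Tnni2, was at 0 at day 0 and at 32.9% and 33.5% at day 5 in control medium (limma difference 33.2 points, SE 1.49, adjusted p = 1.8e-06) and at 0 again under restriction. Lsp1, between Tnni2 and Tnnt3, was at 50.3% and 52.7% at day 0 and 54.5% and 53.0% at day 5, 2.26 points apart (SE 3.66, limma adjusted p = 0.714). Nisch, 1.49 kb from the start of Tnnc1, was at 90.9% to 94.3% in the 6 WT control libraries, and no peak reached into the 2 kb before Tnnc1. The other nearest genes, Ppp1r12c by Tnnt1, Phlda3 by Tnni1, Snx21 by Tnnc2 and Mrpl23 by Tnnt3, were covered at day 0 and did not pass the test to day 5 (limma adjusted p = 0.15, 0.849, 0.617 and 0.254), and Sema3g by Tnnc1 was at 0 in all 20 libraries. Ube2c, a cell cycle gene 4.26 kb from Tnnc2, went the other way, falling from 82.0% and 85.6% at day 0 to 25.8% and 22.8% at day 5 (limma difference -59.5 points, SE 6.16, adjusted p = 0.000168). Prr33, which the RefSeq table lists as a noncoding (lncRNA) gene, shares 45.9% of the body of Tnnt3, and outside it Tnnt3 was covered to 100% in both day 5 control libraries and to 30.2% and 44.4% under restriction.

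Other thin filament genes were counted beside the troponin genes. A list of 15 further genes of this structure held 14 that entered the test. From day 0 to day 5 in control medium 10 of the 14 rose, beside 12.2% of all genes, with a median of 67.2 points: the actins Acta1 and Actc1, Neb and Nrap (nebulin and a relative), the pointed-end proteins Tmod1, Tmod4, Lmod2 and Lmod3, and Klhl40 and Klhl41, which stabilise thin filament proteins. Acta1, skeletal actin, went from 0 in both libraries to 92.2% and 94.1%. The 3 tropomyosin genes and Cfl2 did not pass, and were already at 53.4% to 91.7% at day 0. Tmod4, which rose, was also covered at day 0, at 44.55% and 45.95%, as were Tnnt2, which rose, and Tnnc1, which did not pass. Under restriction at day 5 all 14 fell, beside 41.5% of all genes, with a median of -49.3 points against -9.16 over all genes. Neb kept the most, at 81.2% and 84.5% against 95.1% and 95.7%, and Cfl2 was at 0 in both restricted libraries against 58.2% and 62.5%. At day 1, 9 of the 14 fell under restriction, beside 36% of all genes, and from day 0 to day 1 Acta1, Actc1 and Klhl41 rose, 3 of 14 beside 0.967% of all genes.

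**Figure D5:**
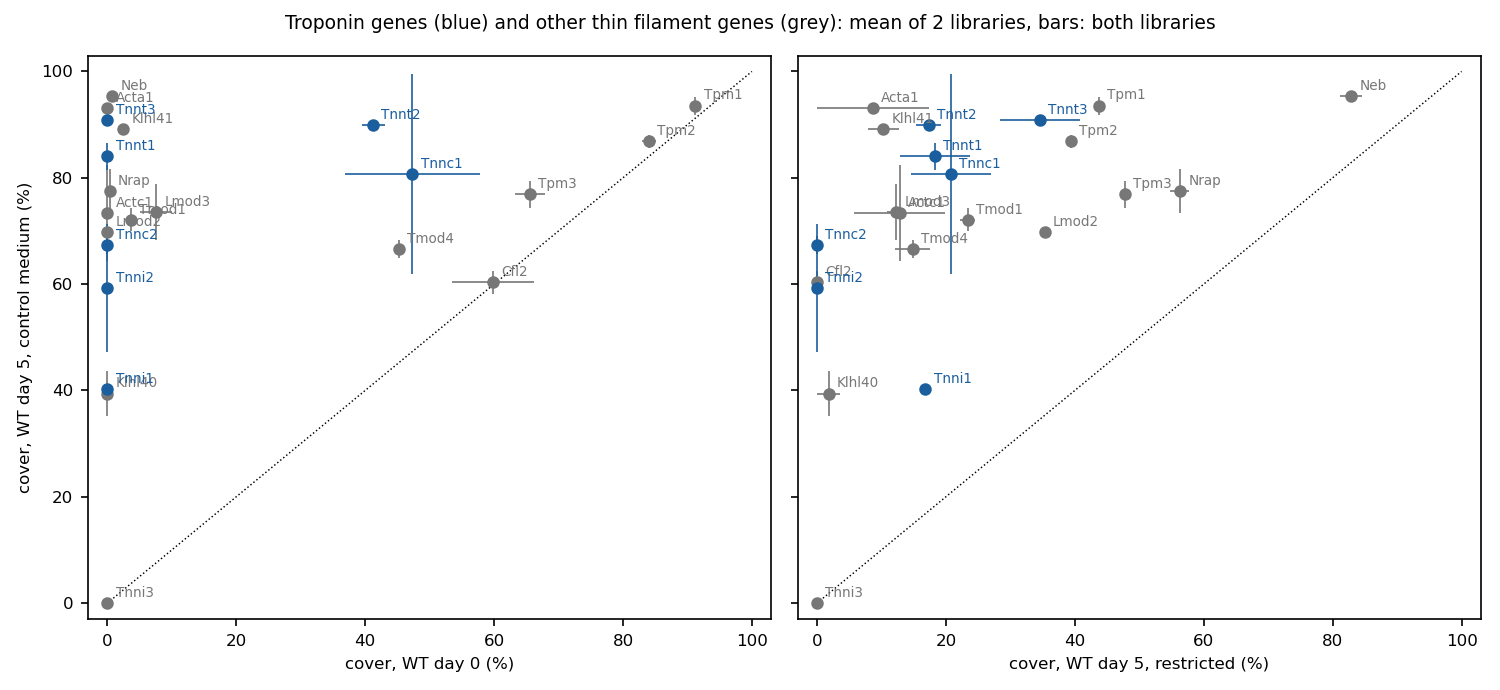
Cover in WT at day 5 in control medium (y axis, percent) against cover at day 0 (left) and at day 5 under restriction (right) for the 7 troponin genes (blue) and 15 other thin filament genes (grey); points are means of 2 libraries and bars span both. All but Tnni3, at 0 throughout, lie above the dotted line of equality on the right, and 5 troponin genes stand at 0 at day 0.

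Genes with the most similar pattern were found by the mean absolute difference in cover over all 20 libraries, leaving out genes within 100 kb. Nearest to Tnnt1 was Hjv, at 2.97 points, then Tgm2 and Jsrp1. For Tnnt3 they were Dclk1, at 4.08 points, Mymk and Gprc5c, and for Tnnt2 2310022B05Rik, at 5.73 points, Bhlhe41 and Rtn4. Tnnc1 had the least close match, Cacng1 at 7.61 points, followed by Eif4ebp1 and Rtn4. Tnnc2 had the closest, Galnt6 at 1.96 points, with Plpp7 and Casq1 next. Nearest to Tnni1 were Srl, at 2.77 points, Mapre3 and Sspn, and nearest to Tnni2 were Cap2, at 3.04 points, Sgca and Fam53b. Much of the likeness of Tnnc2 and Tnni2 lies in shared zeros, since Tnnc2 was above 0 in 3 of 20 libraries and Tnni2 in 6.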

How the data were processed

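The deposited files were 20 peak lists of 9 columns, 1 per H3K36me3 library. Peaks are on GRCm38, per the submitters' processing notes; the peak caller, its control and filters are not given in the sources used here. The fold enrichment (a ratio), the −log10 p and the −log10 q of each peak are the authors' values, as deposited, and their score column was left unused. The lowest −log10 q was 1.00. Depth is unknown, so no counting interval is given. Drosophila spike-in chromatin was added, per the labels' protocols, and no scaling by it was applied here. The input was not analysed here.

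Peaks were merged where they touched, and cover was computed for 19304 protein-coding RefSeq genes (GRCm38.p6) of at least 2 kb. Differences were tested with limma 3.58.1 in R 4.3.3 (trend and robust settings) over all genes with mean cover of at least 5%. The WT fit held 10 libraries in 5 groups and 9513 genes, the fit with KO lines 20 libraries and 8861 genes. Adjusted p-values are Benjamini-Hochberg values within a comparison, called under 0.05. The scripts were tested on simulated data. KO libraries deviated together by line, with r from 0.174 to 0.877 in 10 of 10 pairs, and a line is the same cells in all conditions, so the number pairs them; the fit without this block is reported, and the blocked value stands beside a result where it changes the call. Peak names inside the lists call the KO lines replicates 1 and 2; the labels were followed.

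All 7 members are named whatever their values, as are the nearest gene on each side, the 3 genes of most similar pattern and the called thin filament genes. Members and lists were chosen with earlier results of these data known.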

Additional observations from a re-analysis of the deposited data

Results flagged for a closer look

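For 3 genes the effect of restriction in points differed between the days by the test of the difference itself, with day 1 subtracted from day 5: Tnnc2 by -51.46 points, Tnni2 by -44.14 points and Tnnt3 by -37.94 points. Each was at 0 in both restricted day 1 libraries, so the day 1 effect equals the control cover of that day. Tnnc2 and Tnni2 were also at 0 in both restricted day 5 libraries, so their values restate the rise in control medium from day 1 to day 5, and no difference in the share lost is shown. Without replicate 1 or replicate 2 of either restricted group Tnnt3 was the only member called, but it lost its call when peaks within 1 kb were merged (-22.9 points, limma adjusted p = 0.317).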

How the results depend on the processing

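Among 1291 pairs of a result and an alternative setting, 1191 kept direction and side of the threshold, 29 crossed to a call, 58 lost it and 13 changed sign. The calls from day 0 to day 5, from day 1 to day 5 and under restriction at day 5 held for 6 or 7 members in every setting. From day 0 to day 1 (2 members), calls fell to 0 with −log10 q of at least 3, with lists cut to equal covered length and in the fit of only the libraries compared, where 0 of 9389 genes were called by limma and 1880 had an unadjusted p under 0.05, 3 of them members. They fell to 1 with peaks within 1 kb merged, with alternative bodies (chosen after seeing the data) and with the replicate block, and to between 1 and 2 when 1 library was left out. For restriction at day 1 (3 members) equal lengths gave 1, only the libraries compared 5 and leaving out a library 2 to 5. For day 0 against restricted day 5 (4 members) the q limit and equal lengths each gave 1. For the difference between days (3 members) they gave 6 and 5, merging gave 1, with Tnnt3 among those lost, and leaving out a library 1 to 3. For the KO lines at day 5 (6 members, all lower) centring gave 3, of which Tnnt1 and Tnnt3 were lower and Tnni1 was higher, and leaving out a library gave 5 to 7.

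Centring each library on its median moves the median of all genes at day 5 under restriction from -9.16 to 7.52 points and the share of higher calls from 9.48% to 73.0%; at day 1 that share goes from 6.17% to 73.9%, and for day 0 against restricted day 5 from 8.51% to 75.3%. For day 0 to day 1 it goes from 14.5% to 67.6%, for day 1 to day 5 from 74.2% to 45.7%, for day 0 to day 5 from 43.8% to 55.4%, for the KO lines over all conditions from 0.0346% to 59.4% and at day 5 from 0.0268% to 70.8%. Under it restriction at day 1 gave 8.44 points for Tnni1 and 0.0579 for Tnni2. The mean KO difference became 17.7 for Tnnt1, 12.4 for Tnnt2, 23.1 for Tnnt3, 12.52 for Tnnc1, 29.6 for Tnnc2, 39.0 for Tnni1 and 34.6 for Tnni2, and at day 5 18.8 for Tnnc1 and 25.4 for Tnni1. With KO line 1 only, or without the line 2 library, Tnnc1 was at 17.9, and without the line 1 library at -80.7. The cause was not tested beyond the subtraction of the median itself.

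Genes called from day 0 to day 1 numbered 636, and 0 to 987 over all alternatives. For restriction they numbered 3646 at day 1 (2354 to 4764) and 4359 at day 5 (2728 to 5157), from day 1 to day 5 2192 (1109 to 2693), from day 0 to day 5 2643 (1732 to 3061), and for the KO lines at day 5 7456 (4305 to 8469). For the difference between days they numbered 496 (213 to 658). WT replicate numbers did not pair the libraries (r from -0.439 to 0.0614 in 10 pairs, 0 over 0.1).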
